A study of Mus musculus with 3 samples.

Results

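Blood vascular endothelial cells line arteries, capillaries and veins. They are joined by VE-cadherin, respond to VEGF through the receptors encoded by Kdr and Flt1, and lie on a basement membrane of type IV collagen and laminin. In skin, the venous segment displays the adhesion molecules that let leukocytes leave the blood, capillary cells take up fatty acids, and tip cells lead new sprouts. Cytokines that signal through JAK kinases and STAT factors, interferons among them, reach these cells from the blood and from the dermis.

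The cells described here were picked by their own RNA from 3 single-cell libraries of mouse dorsal skin. A cell was kept when 300 or more genes were detected in it and mitochondrial genes gave no more than 10% of its UMIs (counted molecules), and 33511 of 36868 barcodes passed. A member had at least 1 UMI of at least 3 of Cdh5, Kdr, Flt1, Emcn, Egfl7 and Pecam1, fewer than 3 of the lymphatic genes Lyve1, Prox1, Ccl21a, Mmrn1, Flt4 and Reln, and 0 UMIs of Ptprc, Pdgfra and Pdgfrb. This gave 1197 members, and the levels of these genes in them are a consequence of the choice and not a finding.

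All 3 libraries were full-thickness dorsal skin of wild-type C57BL/6J mice labelled female and 8 weeks old, an age that cannot include the 12 weeks of exposure. CON skin was not irradiated. UV skin was exposed on alternate days over 12 weeks to a mixture of UVB, at 3.5 mW/cm2 between 290 and 315 nm, and UVA, at 0.60 mW/cm2 between 315 and 400 nm. Rux skin received the same light followed each time by an ointment with 1.5% ruxolitinib, an inhibitor of JAK1 and JAK2. The study describes a vehicle for CON and UV, and skin was taken 24 h after the last exposure. Each condition had 1 library, and the number of mice in a library is not given in the sources used here. No difference below therefore has a replicate check, intervals are 95% intervals of counting error only, and condition, animal and library cannot be told apart.

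The libraries went against their sex label. Among the members, Xist, the RNA that silences one X chromosome in female cells, had 2 UMIs in CON and 0 in UV and Rux. Ddx3y, a gene of the Y chromosome, stood at 117 CPM (UMIs of the gene per 1000000 UMIs) in CON, 104 in UV and 114 in Rux. These 3 libraries shared a few barcodes, namely 42 between UV and CON, 34 between Rux and UV and 27 between Rux and CON, none of which was a member in both.

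The members made up 466 of 12039 kept cells in CON, which is 3.87% (3.53 to 4.23). In UV they were 548 of 11331 cells, or 4.84% (4.45 to 5.25). In Rux they were 183 of 10141 cells, or 1.80% (1.55 to 2.08), the lowest share of the 3. The make-up of the skin, its dissociation and the yield of other cell types cannot be told apart in these shares with 1 library each. The median member had 5842.5 UMIs in CON, 6251 in UV and 7074 in Rux, and the members summed to 4239334, 5365883 and 1655051 UMIs. The Rux sums were thus the shallowest.

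**Figure D1:**
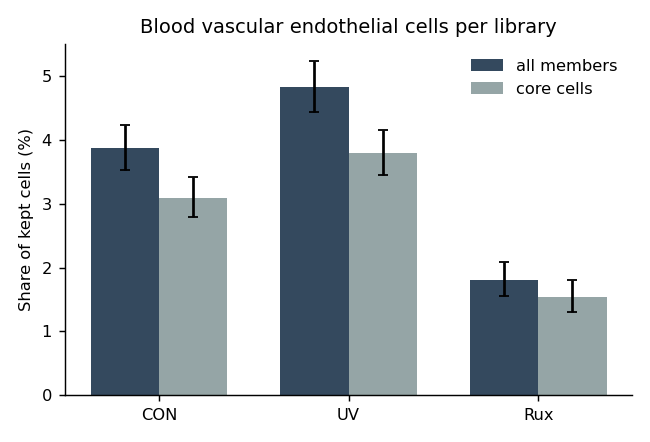
Share of kept cells (%, linear axis from 0) that were blood vascular endothelial cells in each library, for all members and for the core cells defined below. Bars are 1 library each with exact binomial 95% intervals, which cover counting error only. For all members the bars stand at 3.87%, 4.84% and 1.80%, and the core cells keep the same order.

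At the edge of the rule, cells with exactly 3 of the 6 markers numbered 47 in CON, 47 in UV and 18 in Rux and were shallow, with medians of 3251, 3195 and 3272.5 UMIs. Cells just outside it, with exactly 2 markers, numbered 208, 180 and 77. Those were far deeper, with medians of 35331.5, 25329.5 and 24701 UMIs.

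The label was compared with genes that the rule did not use. All 20 further endothelial genes examined, such as the receptor gene Tie1 and the tight-junction gene Cldn5, averaged at least 20 CPM. Of the 32285 genes in the matrices, 6663 reached that level. With every cell thinned to 2000 UMIs, Cldn5 was detected in 28.2% of members in CON, 42.4% in UV and 38.2% in Rux, against 0.2%, 0.8% and 0.4% of fibroblasts. Without thinning the members' shares were 38.8%, 52.4% and 44.8%. Those fibroblasts were picked to have no UMI of Pecam1 or Cdh5, which are markers of the rule.

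Some members carried the RNA of another cell type. Clustering the members gave 10 subclusters, of which 4 had at least 3 markers of another type each in at least 10% of their cells and a mean log2 score above 1 for that type against the other members. One of 99 cells carried mural markers, one of 28 cells lymphatic markers and one of 21 cells fibroblast markers. The fourth held 90 cells with keratinocyte and melanocyte markers. Its cells had a median of 28794.5 UMIs and 31.8% of all member UMIs, the 6 markers of the rule summed to 724 CPM in it, and 54.4% of its cells were called doublets by Scrublet. Scores above 1 that rested on fewer such markers did not count, namely erythroid in subclusters 2 and 3 (4.28 and 1.16), Schwann in subcluster 4 (2.01) and muscle in subcluster 5 (3.83). The other 959 cells, 373 in CON, 430 in UV and 156 in Rux, are called core cells here. They made up 3.10%, 3.79% and 1.54% of kept cells and summed to 2381215, 3001467 and 1303961 UMIs. This division was made after the data were seen, and values are given for the core cells beside the members.

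The marker genes of other cell types differed between the libraries. Over 8 keratinocyte markers the members summed to 3176 CPM in CON, 1680 in UV and 1698 in Rux, with Krt14 the most abundant, and the core cells to 453, 174 and 200 CPM. Over 4 melanocyte markers the members held 667, 1186 and 23.6 CPM, with Dct the most abundant, and the core cells 68.5, 74.3 and 24.5 CPM. Haemoglobin RNA was highest in UV and stayed in the core cells: 5 erythroid markers summed to 14.7 CPM in CON, 4149 in UV and 303 in Rux, led by Hbb-bs, with Alas2 at 0 in CON. Of the Hbb-bs UMIs in the core cells of UV, 44.3% came from 1 cell.

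Over 8 fibroblast markers the members summed to 549, 804 and 543 CPM and the core cells to 541, 427 and 448 CPM, with Pdgfra at 0 by the rule and Dcn the most abundant gene except in the core cells of CON, where it was Col1a1. Over 9 mural markers the core cells held 452, 459 and 475 CPM, led by Tagln in CON and Rgs5 in UV and Rux, with Pdgfrb at 0 by the rule. Leukocyte markers were near 0, with 42.4, 19.3 and 26.1 CPM over 10 genes in the core cells, Ptprc at 0 by the rule and Cd3e at 0 in UV. Lymphatic markers gave 53.3, 59.97 and 82.8 CPM over 7 genes, with Flt4 the most abundant. Muscle RNA was a CON feature, at 273, 3.00 and 4.60 CPM over 5 genes, led by Acta1 in CON with Pax7 at 0. What part these RNAs had in the differences below was not tested, beyond the values given for the core cells.

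Of 3694 genes that averaged 50 CPM or more over the 3 libraries, 161 (4.36%) were at least 1.5-fold higher in the members of UV than of CON, and 92 (2.49%) at least 1.5-fold lower. Between Rux and UV, 146 (3.95%) were higher and 246 (6.66%) lower in Rux. In Rux against CON the counts were 306 (8.28%) higher and 332 (8.99%) lower. In core cells, 3550 genes reached 50 CPM. Of these 181 (5.1%) were higher and 123 (3.46%) lower in UV than in CON, and 85 (2.39%) were higher and 192 (5.41%) lower in Rux than in UV.

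Several of the most extreme ratios came from single cells. The 3 immunoglobulin genes Iglc2, Ighm and Jchain led the genes lower in UV because 1 cell of CON held at least 99.4% of their UMIs there. Scd1, a lipid enzyme of sebaceous cells, had 1242 UMIs in the members of UV, of which 84.8% lay in 1 cell. In the core cells it was level, at 29.8 CPM in CON, 26.99 in UV and 29.1 in Rux. The melanocyte genes Tyrp1, Pmel, Dct and Mlana and the haemoglobin genes were also among the largest ratios.

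Between Rux and UV the gene list with the lowest median was that of interferon-induced genes, 36 genes of which 31 averaged at least 20 CPM in the members. Of these 31, 21 were past 1.5-fold lower in Rux than in UV and 1 past it higher, against 9.73% and 4.26% of the 6663 genes at that level. The list's median log2 ratio was −1.05 (−1.48 to −0.73), beside −0.07 over all genes. Here and below the interval of a list median is the median of its genes' counting bounds. In core cells 24 of 32 genes were lower (6.9% of all 6257 genes) and 0 higher (3.63%), with a median of −1.36 (−1.82 to −0.86) beside −0.01.

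Cxcl9 and Cxcl10 encode chemokines that draw in CXCR3-bearing T cells. In core cells Cxcl9 had 254 UMIs in CON, 602 in UV and 6 in Rux, which is 107, 201 and 4.60 CPM. Its log2 ratio of Rux over UV was −5.33 (−6.90 to −4.32). Cxcl10 stood at 249, 311 and 13.0 CPM, with a ratio of −4.53 (−5.36 to −3.89). Both were higher in UV than in CON and nearly gone in Rux, and in no library did 1 cell hold more than 35.3% of the UMIs of either.

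Iigp1, Irgm1 and Igtp encode GTPases of the immunity-related family, which act against pathogens inside cells. Iigp1 stood at 955 CPM in CON, 868 in UV and 92.8 in Rux in core cells, a ratio of −3.22 (−3.50 to −2.96) between Rux and UV. Irgm1 (chr11:48861968-48871683, minus strand, mm10) kept that order, with 147, 109 and 8.44 CPM. Igtp gave 86.9, 43.0 and 11.5 CPM. CON was the highest and Rux the lowest library for all 3 genes.

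The antiviral genes followed. Ifit1, whose product binds foreign RNA, stood at 197, 119 and 13.8 CPM in CON, UV and Rux, and 50% of its 18 UMIs in Rux came from 1 cell. The ubiquitin-like modifier gene Isg15 gave 250, 178 and 59.1 CPM, and Rsad2, which encodes viperin, 149, 119 and 36.04 CPM. Gbp2, for a guanylate-binding protein, gave 213, 135 and 59.8 CPM. Rnf213, for a large ubiquitin ligase, was level between CON and UV at 308 and 326 CPM and stood at 92.8 in Rux. Cd274, which encodes the checkpoint ligand PD-L1 and is named after its values were seen, gave 167, 135 and 23.01 CPM.

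Some regulators of the pathway were also lower in Rux than in UV. Il2rg, of the JAK and STAT list below, was higher, with a log2 ratio of 0.61 in core cells. Irf1, a transcription factor induced by interferon, stood at 678 CPM in CON, 734 in UV and 330 in Rux in core cells, a ratio of Rux over UV of −1.15 (−1.306 to −1.004). The feedback inhibitor Socs3 gave 921, 894 and 433 CPM, and Socs1 had 79, 109 and 13 UMIs. Stat2 gave 78.5, 97.3 and 29.9 CPM. The drug's targets were themselves lower in Rux than in UV in core cells, Jak1 at 691, 733 and 512 CPM and Jak2 at 483, 659 and 416 CPM. Over the 36 JAK and STAT pathway genes, 32 passed 20 CPM in core cells, and 7 were past 1.5-fold lower and 1 past it higher in Rux than in UV, against 6.9% and 3.63% of all genes, with a median of −0.19 (−0.48 to 0.15). In all members these counts were 3 and 3 of 32, with a median of −0.04, and the lower share was no larger than the 9.73% of all genes.

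Other interferon genes lay closer together in the 3 libraries. Bst2, which encodes the virus tether tetherin, stood at 263, 246 and 206 CPM in CON, UV and Rux, a ratio of Rux over UV of −0.25 (−0.46 to −0.05), and its ratio in all members was 0.07. Ly6e gave 999, 895 and 953 CPM, and Ifitm3, for a membrane protein that blocks viral entry, 2827, 2243 and 2258 CPM. Ifitm2 was lowest in UV, at 1765, 1118 and 1475 CPM. The MHC class I chain genes were likewise close to level, H2-K1 at 1280, 1095 and 1078 CPM, H2-D1 at 1551, 1454 and 1573 CPM and B2m at 1667, 1547 and 1381 CPM. Their transcriptional activator Nlrc5 was not, at 103, 93.3 and 32.2 CPM. Of the 14 MHC class I genes, 3 were past 1.5-fold lower in Rux than in UV in core cells and 0 past it higher, against 6.9% and 3.63% of all genes, with a median of −0.23 (−0.60 to 0.02). In all members 1 of 14 was lower and 0 higher (9.73% and 4.26%), and the median was on the other side of 0, at 0.12 (−0.23 to 0.27).

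**Figure D2:**
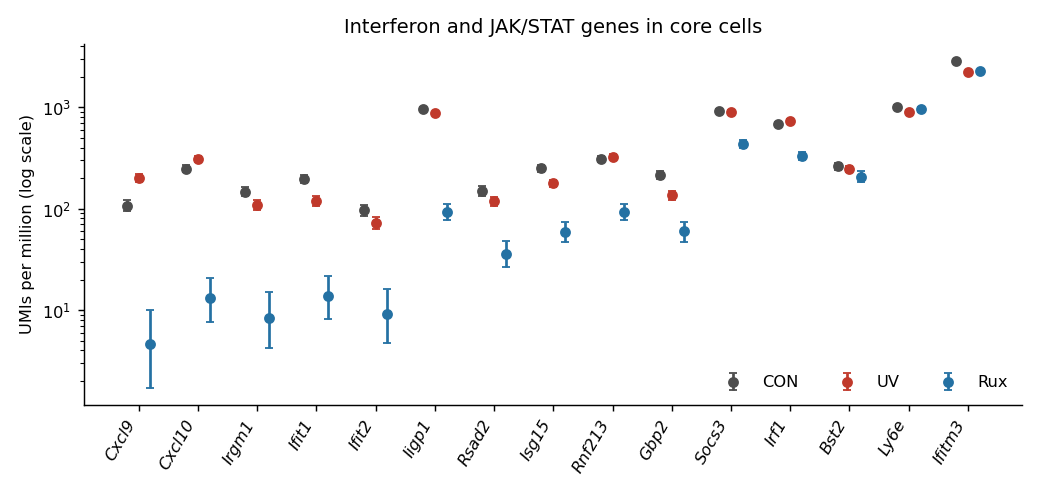
Levels of interferon and JAK/STAT genes in core cells (CPM, log axis), with CON, UV and Rux as separate points and exact Poisson 95% intervals, 1 library each. From Cxcl9 to Irf1 the Rux point lies under both others, while the points of Bst2, Ly6e and Ifitm3 lie close together.

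Between UV and CON the list's median was closer to 0. In the members 6 of 31 interferon genes were past 1.5-fold lower in UV than in CON and 0 past it higher, against 3.33% and 4.64% of all genes, with a median of −0.30 (−0.51 to −0.03), which turned to 0.15 when 2 of the 6 markers sufficed. In core cells 5 of 32 were lower (5.13% of all genes) and 1, Cxcl9, higher (5.58%). Within subclusters 2 and 3, described below, 15 of 31 were past 1.5-fold lower and 0 higher (10.6% and 7.61% of all genes), with a median of −0.50. Subclusters 2 and 3 apart gave medians of −0.27 and −0.69. Within venous-like cells 10 of 29 were lower and 0 higher (7.77% and 10.7%), with a median of −0.50, and within tip cell-like cells 11 of 34 were lower and 2 higher (10.6% and 15.2%), with a median of −0.40. Subcluster 5, which is unnamed and mostly of CON, went the opposite way, with a median of 0.71 over 26 genes beside 0.16 over all genes.

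As shares of cells, Iigp1 and Irgm1 were again lowest in Rux, but CON was not above UV in the thinned shares as it was in CPM. With each cell thinned to 2000 UMIs, Irgm1 was detected in 72 of 440 members in CON (16.4%) and 92 of 510 in UV (18.04%). In Rux it was detected in 0 of 165 members, where the exact binomial interval reached up to 2.21% of cells with a UMI at this depth. Iigp1 was detected in 49.8% of members in CON, 54.9% in UV and 11.5% in Rux. In fibroblasts, as a background, Iigp1 was detected in 14.4%, 5.8% and 4.0%, and Irgm1 in 9.0%, 6.0% and 1.2%. Without thinning, Iigp1 was detected in 70.4%, 72.3% and 31.7% of members and Irgm1 in 40.6%, 38.3% and 6.56%.

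Interferon signals end at 2 kinds of DNA element, the ISRE, bound by a complex that includes STAT2 and IRF9, and the GAS, bound by STAT dimers. The 250 bases before each RefSeq gene start (GRCm38.p6, the mm10 assembly) were searched on both strands for 2 copies of GAAA with any 2 bases between them as the ISRE and for TTCNNNGAA as the GAS, and matches were allowed to overlap. An ISRE was present in 978 of 32851 promoters (2.98%) and a GAS in 2306 (7.02%). Of the 36 interferon genes, 28 had a RefSeq promoter, and 13 of these held an ISRE and 7 a GAS. These are counts of genes, which can have several starts, while the shares above are of promoters. Among those past 1.5-fold lower in the members of Rux, 10 of 18 held an ISRE and 5 a GAS. Among the other 7 that passed 20 CPM, 2 held an ISRE and 2 a GAS. A match of letters is a description and not a measured binding site.

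The 150 bases before the start are printed for genes past 1.5-fold lower in Rux than in UV and for Bst2, which was not past it, so that the elements can be compared. They were picked for holding a match there. Cxcl9 and Cd274, also past 1.5-fold lower, and the other start of Irf1 held neither element in the 250 bases. Capitals mark the matches, and runs of capitals longer than 10 letters are overlapping matches. Irgm1 lies at chr11:48871421-48871570, minus strand; Ifit1 at chr19:34640739-34640888, plus strand; Isg15 at chr4:156200819-156200968, minus strand. Gbp2 lies at chr3:142620513-142620662, plus strand. The first of 2 starts of Irf1 lies at chr11:53769864-53770013, plus strand, and Bst2 at chr8:71537473-71537622, minus strand.
Irgm1: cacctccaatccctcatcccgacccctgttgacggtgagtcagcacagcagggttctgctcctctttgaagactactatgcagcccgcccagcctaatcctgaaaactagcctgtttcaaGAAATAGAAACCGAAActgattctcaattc
Ifit1: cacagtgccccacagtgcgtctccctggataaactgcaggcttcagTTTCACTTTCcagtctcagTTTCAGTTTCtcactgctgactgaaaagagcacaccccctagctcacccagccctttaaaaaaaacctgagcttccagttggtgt
Isg15: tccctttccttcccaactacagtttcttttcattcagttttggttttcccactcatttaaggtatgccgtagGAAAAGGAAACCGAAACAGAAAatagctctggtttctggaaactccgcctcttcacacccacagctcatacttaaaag
Gbp2: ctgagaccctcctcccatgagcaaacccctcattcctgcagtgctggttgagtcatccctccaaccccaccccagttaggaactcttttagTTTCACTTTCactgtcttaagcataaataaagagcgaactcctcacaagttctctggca
Irf1: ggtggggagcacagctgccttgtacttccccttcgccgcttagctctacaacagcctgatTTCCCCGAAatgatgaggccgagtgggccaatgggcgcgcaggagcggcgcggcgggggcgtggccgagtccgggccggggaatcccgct
Bst2: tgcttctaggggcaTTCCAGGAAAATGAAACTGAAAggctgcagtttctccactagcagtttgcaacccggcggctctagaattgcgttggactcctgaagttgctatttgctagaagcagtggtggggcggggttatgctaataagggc
Irgm1 holds 2 overlapping ISRE matches next to the start, Ifit1 holds 2 separate ones on the other strand, Isg15 holds 3 that overlap and Gbp2 holds 1. Irf1 holds a GAS and no ISRE. Bst2 holds 2 ISRE matches overlapped by a GAS, so these letters were also present before a gene that was not past 1.5-fold lower.

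The list of type IV collagens, laminins and other basement membrane genes had a median above 0 in UV over CON. All 17 listed genes passed 20 CPM, and 9 were past 1.5-fold higher in the members of UV and 0 lower, against 4.64% and 3.33% of all genes, with a median log2 ratio of 0.59 (0.42 to 0.71) beside −0.01 over all genes. In core cells the counts were also 9 and 0 (5.58% and 5.13% of all genes), with a median of 0.61 (0.44 to 0.80), and the lowest was the laminin gene Lamb2 at −0.17 (−0.41 to 0.07). Within tip cell-like cells 12 of 17 were past 1.5-fold higher and 1 lower (15.2% and 10.6% of all genes), with a median of 0.68. Col4a1, Col4a2, Nid2 and Lama4 are also on the tip cell list that named these cells, and Lama4 was among their leading genes. This count and that of tip cell genes given below are therefore not separate results. Within venous-like cells 5 of 15 were higher and 0 lower (10.7% and 7.77%), with a median of 0.22, and within subclusters 2 and 3, which carry capillary markers, 5 of 17 and 0 (7.61% and 10.6%), with a median of 0.30. These subclusters are described below. Between Rux and UV the medians were 0.20 in the members and 0.00 in the core cells, where 0 genes were past 1.5-fold higher and 1, Lama4, past it lower (3.63% and 6.9% of all genes).

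Col4a1 and Col4a2 encode the paired chains of type IV collagen. In core cells Col4a1 (chr8:11198423-11312826, minus strand, mm10) stood at 397 CPM in CON, 907 in UV and 984 in Rux, a ratio of UV over CON of 1.19 (1.09 to 1.30). Col4a2 gave 327, 783 and 726 CPM. The collagen-binding glycoprotein gene Sparc gave 744, 1847 and 1982 CPM, a ratio of 1.31 (1.24 to 1.39). In each of these CON was the lowest library and UV and Rux lay close together.

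The laminin chain gene Lamb1 had 88 UMIs in CON, 341 in UV and 134 in Rux, or 37.0, 114 and 103 CPM. Lama4, for a laminin chain of vessels, was high in UV alone, at 157, 241 and 149 CPM. Col18a1, whose product contains endostatin, gave 95.7, 210 and 302 CPM and was highest in Rux. The perlecan gene Hspg2 gave 286, 427 and 393 CPM. With cells thinned to 2000 UMIs, Col4a1 was detected in 39.1% of members in CON, 63.3% in UV and 69.7% in Rux, against 39.8%, 46.2% and 51.0% of fibroblasts, and without thinning in 64.4%, 83.0% and 84.7% of members.

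**Figure D3:**
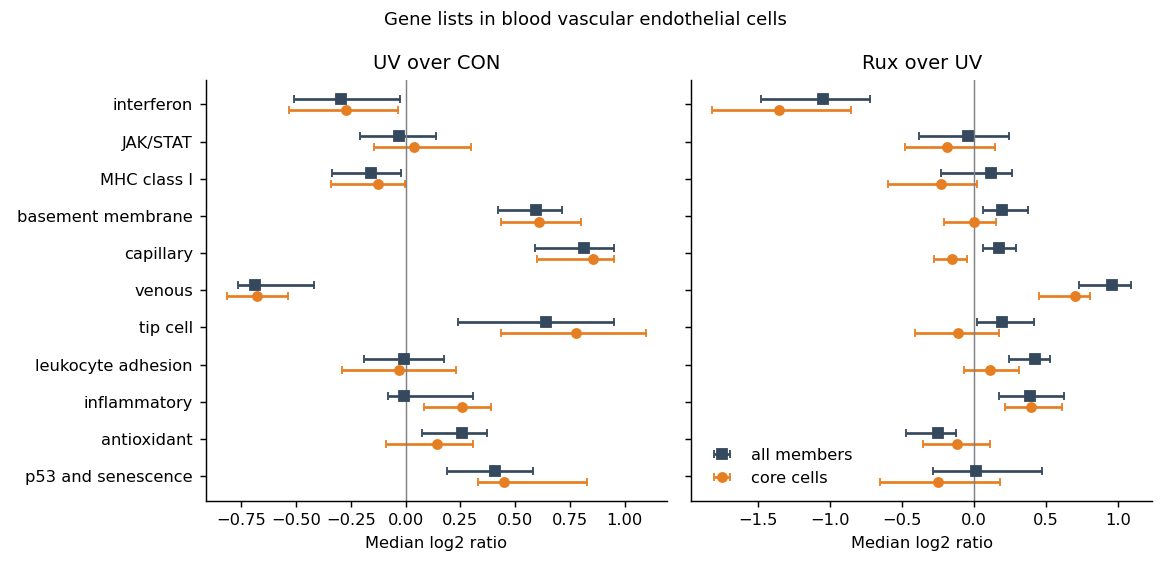
Median log2 ratios of gene lists for UV over CON (left) and Rux over UV (right), in all members (squares) and core cells (circles), with the median of the genes' 95% counting bounds as bars, 1 library per condition. The interferon list lies lowest in Rux over UV, at −1.05 and −1.36, the basement membrane list lies near 0.6 in UV over CON, and the venous list lies below 0 on the left and above 0 on the right. The 2 panels share the UV library and are not independent.

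Genes that mark vessel segments also differed between the libraries, and the medians of the capillary and venous lists moved towards 0 when subclusters were held in the proportions of CON. The subclusters were named by markers. Subcluster 1, of 225 cells, was tip cell-like, subcluster 3, of 198 cells, capillary-like, subcluster 4, of 190 cells, venous-like and subcluster 9, of 22 cells, arterial-like. Subcluster 2, of 204 cells, had all 14 capillary markers in at least 10% of its cells, but immunoglobulin and haemoglobin genes led it by fold, so it stays unnamed. Subclusters 2 and 3 are given together by number, and their cells numbered 98 in CON, 239 in UV and 65 in Rux, the venous-like cells 87, 68 and 35 and the tip cell-like cells 92, 95 and 38. Of the 120 cells of subcluster 5, also unnamed, 89 came from CON. Skeletal muscle genes led it, Acta1 first, each in fewer than 10% of its cells, and the 5 muscle markers summed to 846 CPM in it. Among genes in at least 10% of its cells Cmah, Cytl1 and Edn1 were leading. It also had all 13 venous markers in at least 10% of its cells and a venous score of 1.20, its only zone score above 0. No venous marker was among its leading genes, so it stays unnamed. Its part in the venous list below was not tested on its own. The cell numbers give the depth behind the values and are not a comparison of segments, since the clusters were built from the genes compared. A subcluster mostly of 1 library may be that library.

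Over 14 capillary genes, 9 were past 1.5-fold higher in UV than in CON and 0 lower in the members (4.64% and 3.33% of all genes), with a median of 0.82 (0.59 to 0.95). Fabp4, a fatty-acid carrier, gave 8841, 16485 and 15495 CPM in the core cells of CON, UV and Rux, and Gpihbp1, which holds lipoprotein lipase on capillaries, 300.3, 659 and 528 CPM. Within subclusters 2 and 3 the list was level, with a median of −0.01, 0 genes past 1.5-fold higher (7.61% of all genes there) and 2 past it lower (10.6%). Weighting the subclusters as in CON gave 0.07. In lymphatic endothelial cells, a class picked by its own markers, the median over 11 capillary genes was 0.76 in UV over CON, beside −0.05 over all genes.

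Over 13 venous genes, 7 were past 1.5-fold lower in UV than in CON and 0 higher (3.33% and 4.64% of all genes), with a median of −0.69 (−0.77 to −0.42). Between Rux and UV 8 were past it higher in Rux and 0 lower (4.26% and 9.73% of all genes), with a median of 0.96 (0.73 to 1.10). Weighting the subclusters as in CON moved these medians to −0.13 and 0.18. By contrast, 10 of 11 venous genes were past 1.5-fold higher in Rux than in UV and 0 lower within subclusters 2 and 3 (9.99% and 12.6% of all genes), with a median of 1.20, and subclusters 2 and 3 apart gave medians of 1.52 and 0.30. Within venous-like cells 4 of 13 were higher and 3 lower (11.9% and 13.2%), with a median of 0.38, and within tip cell-like cells 2 of 11 were higher and 2 lower (10.6% and 13.5%), with a median of 0.13. Selp, which encodes P-selectin, gave 3227, 1881 and 2030 CPM in all core cells. Within venous-like cells it gave 9005, 7540 and 6258 CPM, with a ratio of UV over CON of −0.26 (−0.31 to −0.20). Vwf, for the clotting factor carrier, gave 662, 298 and 525 CPM in core cells but 649, 604 and 788 CPM within venous-like cells. Sele, for E-selectin, gave 1116, 708 and 1160 CPM in core cells and 2919, 2761 and 3178 CPM within venous-like cells.

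Some leukocyte adhesion and inflammatory genes were higher in Rux than in UV. Of 12 adhesion genes, 4 were past 1.5-fold higher in the members of Rux and 1, Alcam, lower (4.26% and 9.73% of all genes), with a median of 0.42 (0.24 to 0.53). The adhesion list includes Pecam1, a marker of the rule, whose level is a consequence of the choice of members. In core cells 3 of 13 were higher and 1 lower (3.63% and 6.9%), with a median of 0.11 (−0.07 to 0.32). Of 23 inflammatory genes, 9 were higher in the members and 1, Cxcl10, lower (4.26% and 9.73% of all genes). The median was 0.39 (0.17 to 0.62). In core cells 7 of 21 were higher and 1 lower (3.63% and 6.9%), with a median also of 0.39. Within subclusters 2 and 3, 10 of 21 were higher and 1 lower (9.99% and 12.6%), with a median of 0.57. Within venous-like cells 9 of 22 were higher and 3 lower (11.9% and 13.2%), with a median of 0.34. Tip cell-like cells had 6 of 20 higher and 5 lower (10.6% and 13.5%), with a median of −0.05.

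Icam1, the ligand of leukocyte integrins, stood at 1084 CPM in CON, 1256 in UV and 2143 in Rux in core cells, a ratio of Rux over UV of 0.77 (0.70 to 0.84). It gave 1265, 1251 and 2472 CPM within subclusters 2 and 3 and within venous-like cells 1576, 1505 and 2793 CPM. Within tip cell-like cells it gave 439, 1176 and 1151 CPM. Rux was thus the highest library in subclusters 2 and 3 and in the venous-like cells, and CON the lowest in the tip cell-like cells.

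Cxcl1, a chemokine that draws in neutrophils, gave 445, 578 and 1426 CPM in core cells and was highest in Rux within subclusters 2 and 3 (743, 729 and 1806 CPM), venous-like cells (501, 630 and 1650 CPM) and tip cell-like cells (273, 304 and 1025 CPM). Csf1, a growth factor of macrophages, gave 124, 191 and 343 CPM. The adhesion gene Vcam1 gave 149, 82.6 and 206 CPM. These 3 genes had 1 cell with at most 19.0% of their UMIs in any library. Il6 went the other way, at 792, 799 and 554 CPM.

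Hmox1, which encodes the haem-degrading enzyme heme oxygenase 1, was high in UV alone. In core cells it had 174 UMIs in CON, 983 in UV and 76 in Rux, or 73.1, 328 and 58.3 CPM. The log2 ratio of UV over CON was 2.16 (1.93 to 2.41) and that of Rux over UV −2.48 (−2.85 to −2.15). UV was the highest library in subclusters 2 and 3 (99.4, 387 and 131 CPM), in venous-like cells (121, 581 and 35.2 CPM) and in tip cell-like cells (52.2, 100.4 and 21.8 CPM). The haemoglobin RNA given above was highest in the same library, and its part in the level of Hmox1 was not tested.

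Other oxidative-stress genes moved less. Gclm, a subunit of the enzyme that limits glutathione synthesis, gave 77.7, 109 and 50.6 CPM in core cells, and the cystine carrier gene Slc7a11 had 57, 138 and 21 UMIs. The thioredoxin reductase gene Txnrd1 gave 365, 414 and 248 CPM. Other genes of the list went the opposite way. In core cells Nqo1 had a log2 ratio of Rux over UV of 0.57, and Mt2 one of UV over CON of −0.88. Over 21 antioxidant genes, 6 were past 1.5-fold higher and 0 lower in the members of UV than of CON (4.64% and 3.33% of all genes), with a median of 0.26. In core cells 4 were higher and 2 lower (5.58% and 5.13%), with a median of 0.14. Within subclusters 2 and 3, venous-like cells and tip cell-like cells the medians were −0.01, 0.06 and −0.07. Between Rux and UV 6 were lower and 2 higher in the members (9.73% and 4.26%), and 4 lower and 0 higher in core cells (6.9% and 3.63%).

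Several targets of p53, the transcription factor that responds to DNA damage, were higher in UV than in CON within tip cell-like cells. Over the p53 and senescence list, 10 of 14 genes were past 1.5-fold higher and 1 lower in UV than in CON there, against 15.2% and 10.6% of all genes, with a median of 1.16 beside 0.08. Within subclusters 2 and 3, 0 of 12 were higher and 1 lower (7.61% and 10.6% of all genes), with a median of −0.11. Within venous-like cells 0 of 11 were higher and 3 lower (10.7% and 7.77%), with a median of −0.13. Between Rux and UV, 2 of 14 were higher and 5 lower in the tip cell-like cells (10.6% and 13.5%), with a median of −0.46. For subclusters 2 and 3, 2 of 12 were higher and 4 lower (9.99% and 12.6%), with a median of −0.23. In venous-like cells 0 of 11 were higher and 5 lower (11.9% and 13.2%), with a median of −0.47. The list was not compared between Rux and CON within subclusters.

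Phlda3, an inhibitor of AKT, stood at 9.20 CPM in the tip cell-like cells of CON, 304 in UV and 196 in Rux. It was detected in 5 of 92, 54 of 95 and 15 of 38 of these cells. Mdm2, which encodes the ubiquitin ligase that degrades p53, gave 66.0, 312 and 204 CPM and was detected in 31, 63 and 17 of the same cells. The apoptosis gene Bax gave 117, 323 and 253 CPM, and Ccng1, for cyclin G1, had 3, 61 and 16 UMIs. As shares of these cells, Bax was detected in 48.9% in CON, 64.2% in UV and 50% in Rux, so Rux lay close to CON. For all 4 genes CON was the lowest library and UV the highest, and the median tip cell-like cell had 5527, 8207 and 6859 UMIs.

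Within subclusters 2 and 3, Phlda3 had 2, 13 and 14 UMIs in CON, UV and Rux, or 4.23, 9.77 and 33.3 CPM. Within venous-like cells it had 3, 8 and 14 UMIs, or 4.07, 12.2 and 37.9 CPM. Rux was the highest library in both, on few UMIs. Whether the segments differ could not be tested with 1 library each. Tip cell genes themselves were past 1.5-fold higher in UV than in CON in 10 of 14 cases and lower in 0 within the tip cell-like cells (15.2% and 10.6% of all genes), with a median of 0.75, so the cells placed in this subcluster were not alike in the 2 libraries. Weighting the subclusters as in CON left a median of 0.07 for the p53 list over all members, beside 0.41 without weighting.

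**Figure D4:**
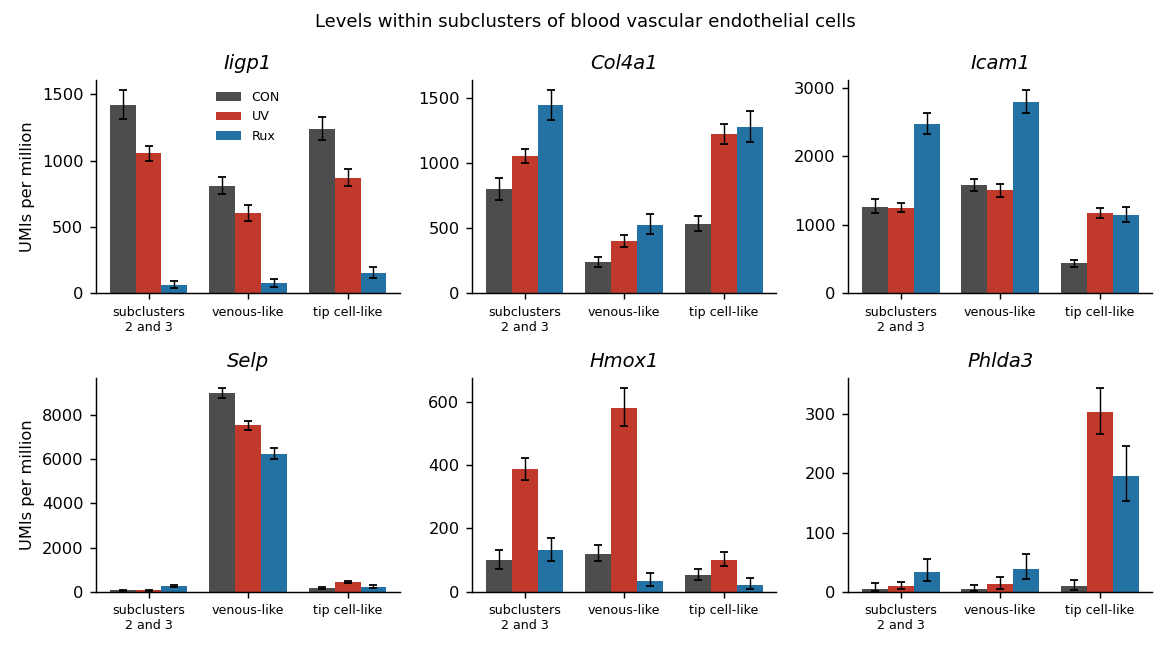
Levels of 6 genes (CPM, linear axes from 0) within subclusters 2 and 3 together and the venous-like and tip cell-like subclusters of CON, UV and Rux, with exact Poisson 95% intervals, 1 library each. Iigp1 is lowest in Rux in all 3 subclusters, Hmox1 is highest in UV in all 3, Selp is high in the venous-like cells alone, and Phlda3 is high in the tip cell-like cells of UV (304) and Rux (196).

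The interferon list was low in Rux in the 3 sets of subclusters above. Within subclusters 2 and 3, 23 of 31 genes were past 1.5-fold lower in Rux than in UV, against 12.6% of all genes. Within venous-like cells 16 of 29 were lower, against 13.2%, and within tip cell-like cells 26 of 34, against 13.5%. In these cells 0 interferon genes were past 1.5-fold higher, against 9.99%, 11.9% and 10.6% of all genes. The medians were −1.40, −0.76 and −1.34, and the capillary-like subcluster 3 alone gave −1.20 over 32 genes. Iigp1 gave 1422, 1055 and 66.5 CPM in subclusters 2 and 3 of CON, UV and Rux, 810, 606 and 75.9 CPM in the venous-like cells and 1243, 872 and 152 CPM in the tip cell-like cells. Cxcl10 was higher in UV than in CON in tip cell-like cells alone (340, 636 and 2.72 CPM) and lower in subclusters 2 and 3 (423, 239 and 33.3 CPM).

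Among the 12 highest ratios of Rux over UV in the members were several genes that were lowest in UV. Mgp, an inhibitor of calcification, gave 340, 85.6 and 577 CPM in core cells, with 41.8% of the Rux UMIs in 1 cell. Lbp, which encodes the endotoxin-binding protein, gave 100.4, 53.6 and 202 CPM. Edn1, for the vasoconstrictor endothelin 1, gave 144, 58.6 and 173 CPM, and the secreted-protein gene Cytl1 266, 59.97 and 176 CPM. Cytl1 and Edn1 were also among the genes given above for subcluster 5, most of whose cells came from CON. Among the 12 highest ratios of UV over CON in core cells was the integrin gene Itgav, with 72.6, 218 and 337 CPM, lowest in CON and highest in Rux.

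The interferon genes were compared with 3 other stromal classes picked by markers from the same libraries. Lymphatic endothelial cells numbered 442, 295 and 133 in CON, UV and Rux, mural cells 474, 379 and 247 and fibroblasts 1785, 2476 and 2242, and 1 mural cell of UV was also a member. The median log2 ratio of Rux over UV was −0.23 in lymphatic endothelial cells, with 8 of 26 genes past 1.5-fold lower (5.88% of all genes). It was −0.43 in mural cells, with 7 of 16 lower (3.67%), and −0.34 in fibroblasts, with 8 of 19 lower (3.5%). In the core blood endothelial cells it was −1.36, with 24 of 32 lower (6.9%), and in all members −1.05, with 21 of 31 (9.73%). Only the core cells had subclusters with markers of other types left out. The lists differ in which genes reached 20 CPM, and no test of the difference between classes was possible with 1 library each.

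Single genes gave the values behind these medians. Iigp1 stood at 173 CPM in lymphatic endothelial cells of CON, 137 in UV and 59.6 in Rux, a ratio of Rux over UV of −1.20 (−1.49 to −0.92), beside −3.22 in the core blood endothelial cells. Isg15 was level in lymphatic endothelial cells, at 117, 102 and 105 CPM. Cxcl10 stood at 104, 77.6 and 83.9 CPM in fibroblasts, where Rux was not lower than UV. Socs3 was lower in Rux than in UV in all 4 classes, at 805 and 443 CPM in lymphatic endothelial cells, 246 and 124 in mural cells and 366 and 134 in fibroblasts.

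Not everything was larger in the blood endothelial cells. Hmox1 gave 49.5, 473 and 62.0 CPM in lymphatic endothelial cells of CON, UV and Rux and 40.9, 433 and 119 CPM in fibroblasts, so its UV level was high in these classes too. Col4a1 was lower in UV than in CON in lymphatic endothelial cells, at 148 and 118 CPM, and in mural cells, at 322 and 256, and was level in fibroblasts at 284 and 286. The basement membrane list as a whole had medians above 0 in UV over CON in these classes too, 0.33 in lymphatic endothelial cells, 0.33 in mural cells and 0.16 in fibroblasts, beside −0.05, −0.04 and −0.13 over all genes. Phlda3 was not higher in UV or Rux than in CON in lymphatic endothelial cells, at 21.7, 16.4 and 18.7 CPM.

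**Figure D5:**
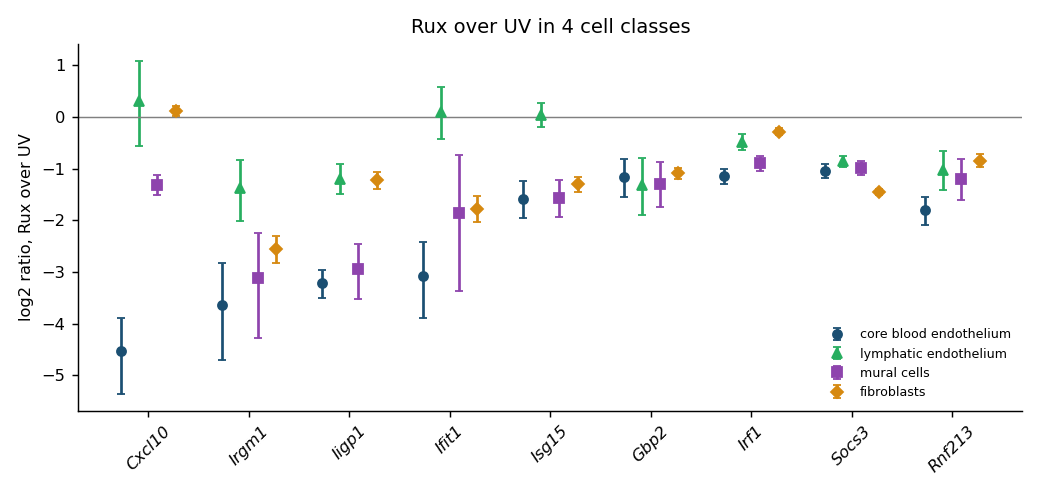
Log2 ratio of Rux over UV for 9 interferon and JAK/STAT genes in core blood endothelial cells, lymphatic endothelial cells, mural cells and fibroblasts, with 95% counting intervals and 1 library per condition. Cxcl10 lies at −4.53 in the blood endothelial cells and near 0 in lymphatic endothelial cells and fibroblasts, while Socs3 lies below 0 in all 4 classes.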

How the data were processed

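Full-thickness dorsal skin was profiled by droplet 3' single-cell RNA-seq, 1 library each for CON, UV and Rux. The authors deposited UMI counts per gene and cell (10x 3' v3.1 chemistry), unnormalized, for the cells that Cell Ranger called. The submitters' processing notes name Cell Ranger 6.1.2, Seurat 5.3.0 and mm10, while the matrix headers name cellranger 7.0.0. Whether intronic reads were counted is not given in the sources used here. Deposited counts summed to 165337289 in CON, 133972374 in UV and 131570327 in Rux.

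The members and gene lists were chosen with earlier results of these data known, and the core cells, the naming of subclusters by their leading genes and the genes named from core cells were chosen after the data were seen. UMIs were summed over member cells per library, scaled to CPM by that sum and compared as log2 ratios with 0.5 UMI added. CPM intervals are exact Poisson, shares Clopper-Pearson and ratios exact conditional binomial, all at 95% and for counting error only. No test was made, since each group has 1 library, and no cell-level test of the study was used. Genes were named when a listed pathway needed them, when among the 12 highest or lowest ratios of genes averaging 50 CPM or more with 100 or more UMIs over both libraries, or when among the 20 most abundant. Lists counted genes with at least 20 CPM.

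Members were clustered with scanpy 1.11.5 and leidenalg 0.10.2 (10000 UMIs per cell, 2000 variable genes, 20 components, 15 neighbours, resolution 0.5), under Python 3.11.15 (pandas 2.3.3, scipy 1.17.1, numpy 2.4.6). A subcluster took a zone name with at least 3 markers of the zone each in at least 10% of its cells, that zone leading in mean score, 1 of its markers among the 10 leading genes found in at least 10% of its cells, and no other class holding more of the 10 leading genes overall. The last condition was used for the names in the text only. The computed naming, which lacked it, made subcluster 2 capillary and summed it with subcluster 3. Subclusters scoring above 1 (log2) for 3 or more markers of another class were left out of the core. Cells called doublets by Scrublet (0.8% per 1000 cells) were kept, and their removal was an alternative. The other alternatives were cell filters, marker minimums, scalings, weightings of cells and subclusters, and CPM minimums. Of 1197 members, 26 in CON, 38 in UV and 18 in Rux had fewer than 2000 UMIs and were left out of thinned shares. Fibroblasts for those shares were 500 per library. Lymphatic endothelial cells had at least 3 of the 6 lymphatic genes and no UMI of Ptprc, Pdgfra or Pdgfrb. Mural cells had at least 3 mural markers and no UMI of Pecam1, Cdh5, Ptprc or Pdgfra. Fibroblasts had Pdgfra with at least 3 of Col1a1, Col1a2, Col3a1, Dcn and Lum and no UMI of Pecam1, Cdh5, Ptprc or Pdgfrb. Gene coordinates came from GENCODE M21 and promoters from RefSeq. The intervals were tested on simulated data. Other cell classes, histology and qPCR were not analysed here. Some genes are not reported here.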

Additional observations from a re-analysis of the deposited data

How the results depend on the processing

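No paired analysis was possible because each group has 1 library, and for the same reason no library could be left out. With 1 library each, depth limits the Rux values most, since 183 members stand behind them. Of 330 list medians under the alternatives, 285 stayed within their counting interval and 0 medians past 1.5-fold changed sign, while medians nearer 0 did, as given below. The named genes' log2 ratios were less stable. Of these under the alternatives, 845 stayed within their counting interval, 355 moved beyond it and 4 reversed. With at least 2 markers 61 of 86 moved, and in core cells 33 of 86. The interferon median of Rux over UV ranged from −1.36 to −0.93 and the basement membrane median of UV over CON from 0.45 to 0.76. Leiden resolutions of 0.3 and 0.8 gave 9 and 14 subclusters. Core cells, core cells weighted as in CON, and leaving out each gene's top cell were chosen after seeing the data. Causes were not tested.

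The share of members in CON, UV and Rux was 5.60%, 6.42% and 2.56% with at least 2 of 6 markers, 4.91%, 6.87% and 2.63% with no limit on Pdgfra and Pdgfrb, and 3.10%, 3.79% and 1.54% for core cells. It was 3.48% in CON and 4.42% in UV with at least 4 markers, and 4.42% in UV with the strict filter.

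Counts of genes past 1.5-fold moved as follows. At 20 CPM, 309 were higher and 222 lower in UV than in CON, 284 higher and 648 lower in Rux than in UV, and 525 higher and 856 lower in Rux than in CON. For Rux over UV, higher genes numbered 56 with at least 2 markers, 85 in core cells, 87 in core cells weighted as in CON and 236 with median-of-ratios scaling. Lower genes numbered 101 with at least 2 markers and 153 without the Pdgfr limit. For UV over CON, lower genes numbered 139 with equal weight per cell and 185 after thinning. For Rux over CON, 196 were lower with at least 2 markers, and higher genes numbered 195 with equal weight and 192 with subclusters weighted as in CON.

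With at least 2 markers the medians of UV over CON were 0.15 for interferon, 0.19 for JAK and STAT, 0.195 for MHC class I, 0.76 for basement membrane, 1.26 for capillary, −0.20 for venous, 0.38 for inflammatory and 0.42 for antioxidant genes. Those of Rux over UV were −0.10 for basement membrane, −0.10 for capillary, 0.54 for venous, −0.17 for tip cell and 0.15 for adhesion genes. The interferon, JAK and STAT and MHC class I medians were thus above 0 there, unlike in the members.

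With subclusters weighted as in CON, the medians of UV over CON were 0.068 for capillary, −0.13 for venous, −0.18 for inflammatory and 0.072 for p53 genes, and those of Rux over UV were 0.0078 for basement membrane, −0.077 for capillary, 0.18 for venous, −0.063 for tip cell and 0.085 for adhesion genes. Weighted core cells gave 0.11, −0.058 and 0.073 for capillary, venous and p53 genes and −0.018 for antioxidant genes in UV over CON. In Rux over UV they gave −0.016 for basement membrane, 0.029 for capillary, 0.21 for venous, −0.068 for tip cell, 0.16 for adhesion and −0.295 for p53 genes. Single genes that reversed in UV over CON were Rgcc, at −0.052 weighted and −0.11 in weighted core cells, and Sele, at 0.034 and 0.13.

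In core cells, medians of Rux over UV were −0.0022 for basement membrane, −0.16 for capillary, 0.70 for venous, −0.11 for tip cell, 0.11 for adhesion and −0.11 for antioxidant genes. Equal weight per cell gave −0.036 for capillary and 0.69 for venous genes. Thinning gave −0.28 for MHC class I, −0.033 for capillary and −0.28 for p53 genes, and 0.32 for inflammatory genes in UV over CON. Without the Pdgfr limit the venous median was 0.62.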
